A study of Mus musculus with 12 samples.

Results

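The matrix metalloproteinases and their tissue inhibitors were followed in mouse embryonic stem cells as 10 genes. The proteases were Mmp13, Mmp3, Mmp10, Mmp12, Mmp2, Mmp9 and Mmp14, and the inhibitors were Timp1, Timp2 and Timp3. The members were all probes that carry one of these names on the array, 12 probes for 10 of 36406 gene names. The genes were selected on their levels in the 3 groups of the same arrays, with the differences between these groups known, so their values are given as a description without a test. Of the 10 genes, 9 entered the fit across genes because each was measured above background in every sample of some group, and Mmp12 did not.

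Total RNA was measured on 12 one-colour arrays, 4 for each of 3 groups of embryonic stem cells. Id1KO_Zrf1KD cells carry a knockout of Id1 and a stable knockdown of Zrf1, made by infecting the knockout cells with lentiviral vectors for Zrf1 hairpins and selecting them with puromycin. Id1KO cells carry the knockout alone, and WT cells are wild type. All cells grew in medium with 15% fetal serum and LIF, the leukaemia inhibitory factor that holds stem cells undifferentiated. The Id1 protein pairs with basic helix-loop-helix transcription factors and keeps them off DNA, and Zrf1 is a J-domain protein whose gene the array names Dnajc2. Per the series' design text the 4 samples of a group were separate biological samples. The labels name no separate clones within a genotype, so line and genotype cannot be told apart between Id1KO and WT. A sample with a control hairpin was not analysed here, so knockdown, infection and selection cannot be told apart between Id1KO_Zrf1KD and Id1KO.

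Matrix metalloproteinases are zinc-dependent enzymes that are made as inactive precursors, are secreted or anchored in the cell membrane, and cut collagens, laminins, proteoglycans and other proteins outside the cell. The tissue inhibitors of metalloproteinases, the Timp proteins, bind the active site of the mature enzymes, and Timp2 also forms the complex with membrane-bound Mmp14 through which the Mmp2 precursor is activated. In mammals the genes of several secreted members lie side by side in 1 cluster, and many carry a motif for the AP-1 transcription factors, the Fos and Jun proteins, shortly before the start site.

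The promoters of the members in that cluster are shown first, because each of these genes holds that motif before an annotated start site. Of the 10 genes, 8 had an entry in the promoter sequences of RefSeq (build GRCm38.p6). Each stretch below holds the 150 bases before the annotated start site, written 5′ to 3′ on the gene's strand. Capitals mark the letters TGANTCA, where N is any base, the AP-1 motif, which reads the same on both strands. Mmp13 (chr9:7272364-7272513, plus strand) encodes the main interstitial collagenase of the mouse, Mmp3 (chr9:7445672-7445821, plus strand) and Mmp10 (chr9:7502192-7502341, plus strand) encode the stromelysins, and Mmp12 encodes the macrophage metalloelastase. Mmp12 has more than 1 annotated start site, and the stretch shown lies before the second (chr9:7347224-7347373, plus strand). Timp2 (chr11:118355412-118355561, minus strand) is shown as a member outside the cluster and without the motif.
Mmp13: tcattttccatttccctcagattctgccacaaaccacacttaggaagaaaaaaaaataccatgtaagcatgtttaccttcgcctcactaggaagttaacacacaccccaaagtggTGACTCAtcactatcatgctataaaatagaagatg
Mmp3: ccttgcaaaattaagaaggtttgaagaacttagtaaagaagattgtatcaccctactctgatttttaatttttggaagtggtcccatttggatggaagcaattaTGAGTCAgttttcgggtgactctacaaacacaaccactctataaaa
Mmp10: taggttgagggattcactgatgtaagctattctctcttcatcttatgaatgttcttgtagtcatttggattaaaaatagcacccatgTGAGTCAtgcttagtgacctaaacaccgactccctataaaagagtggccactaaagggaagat
Mmp12: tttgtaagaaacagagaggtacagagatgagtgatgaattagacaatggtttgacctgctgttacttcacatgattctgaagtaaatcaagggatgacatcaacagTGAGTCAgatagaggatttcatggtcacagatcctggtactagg
Timp2: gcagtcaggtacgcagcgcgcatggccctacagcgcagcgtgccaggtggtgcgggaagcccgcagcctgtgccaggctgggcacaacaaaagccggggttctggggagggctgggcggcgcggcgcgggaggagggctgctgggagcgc

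The motif began 35 bases before the start site of Mmp13, 46 bases before that of Mmp3, 63 bases before that of Mmp10 and 44 bases before the second one of Mmp12. Within 250 bases before a start site, 4 of the 8 members held it, against 6.75% of the 32851 promoters in the table (2217 promoters). Here and below, a gene counts with a match before any of its start sites, whereas the table is counted by single promoters. The 8 members have 9 promoters, and the 14 other genes have 16. The windows of Mmp14, Timp1, Timp2 and Timp3 did not hold these letters. The letters AGGAAG on either strand, a core of Ets factor motifs, were in the windows of 6 of the 8 members and in 29.5% of all promoters. They were also in the windows of 6 of the 14 other genes. For Mmp12 the Ets match lay before the first start site, which is not printed above. Among the 14 other genes of the family with an entry, 4 held the AP-1 letters, namely Mmp1a, Mmp1b, Mmp7 and Mmp20, at 73, 93, 63 and 95 bases before the start site. A match is a description of the letters and not a measured binding site.

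Between 54.8% and 59.3% of the spots of an array were brighter than background. The 75th percentile of the processed signal, by which each array was scaled, was 554.0 to 596.5 units in Id1KO_Zrf1KD, 393.3 to 491.8 units in Id1KO and 440.7 to 550.2 units in WT. It moved with the group, and its part in the results was not tested beyond the other scalings given here. A level below is the log2 of the signal over that percentile, so a level of 0 is the percentile itself. Levels are compared between groups and not between genes, except that the markers with the brightest probes of a list are named as the highest. The knockdown was visible in its target: Dnajc2 averaged -0.27 ± 0.08 in Id1KO_Zrf1KD, 1.89 ± 0.11 in Id1KO and 2.0 ± 0.12 in WT (SD, n = 4 each), 4.47-fold lower in Id1KO_Zrf1KD than in Id1KO (limma, adjusted p = 9.7e-10). The Id1 probe averaged 0.68 ± 0.16 in Id1KO_Zrf1KD, 1.23 ± 0.31 in Id1KO and 0.86 ± 0.20 in WT (SD, n = 4 each), and so was not lower in Id1KO than in WT. The sources used here do not give the deleted bases, and the probe therefore checks nothing about the knockout. All 8 markers of embryonic stem cells, with Dppa5a and Nanog the highest, were well above background on all 12 arrays. Their summed level on the linear scale, which the brightest probes dominate, was 910 to 927 in Id1KO_Zrf1KD, 1110 to 1230 in Id1KO and 1020 to 1170 in WT. Gene by gene, 4 of the 8 rose in Id1KO_Zrf1KD against Id1KO (limma, adjusted p under 0.05), 3 fell and 1 did not pass. The median log2 difference was 0.05. Against WT, 1 rose, 5 fell and 2 did not pass in Id1KO_Zrf1KD, with a median of -0.24. Of all genes tested, 32.3% rose and 39.8% fell against Id1KO, and 32.4% rose and 32.2% fell against WT. Nothing is read from the counts of the 8 markers.

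Set against Id1KO, Id1KO_Zrf1KD cells had higher RNA levels of all 9 members that could be compared, proteases and inhibitors alike. The groups did not overlap for any of the 9, where 30.6% of the 22593 genes tested lay higher in Id1KO_Zrf1KD without overlap and 36.5% lay lower without overlap. The members were chosen with this contrast known, so nothing is read from that count. The differences were 27.1-fold for Mmp10, 19.6-fold for Mmp13, 15.2-fold for Mmp3 and 9.03-fold for Timp2 at the high end, and 1.63-fold for Mmp9 and 1.82-fold for Mmp2 at the low end. The place of Mmp10 in this order depended on the background correction, since with normexp its log2 difference was 3.02, below 3.92 for Mmp13, 3.70 for Mmp3 and 3.18 for Timp2. The median log2 difference of the 9 was 2.12, beside -0.09 for all genes tested. Mmp10 passed the filter on dim probes only through Id1KO_Zrf1KD. From RNA of whole cultures, fewer cells that express a gene and less of its RNA per cell cannot be told apart.

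Set against WT, Id1KO cells divided the family. Mmp3, Mmp9, Mmp10 and Mmp13 lay higher in Id1KO, 4 of the 9, and Mmp2, Timp1, Timp2 and Timp3 lay lower, also 4 of the 9, all without overlap of the groups. Among all genes tested, 38.4% lay higher and 27.4% lay lower without overlap, and again nothing is read from the members' counts. Mmp14 was 1.43-fold lower in Id1KO on average, with groups that overlapped. The median log2 difference of the 9 was -0.52, beside 0.15 for all genes tested. Both comparisons share the Id1KO arrays, so they are not independent, and the values of each are given side by side for every member. Set against WT directly, Id1KO_Zrf1KD cells had 7 of the 9 higher (Mmp3, Mmp9, Mmp10, Mmp13, Mmp14, Timp2 and Timp3) and 2 lower (Mmp2 and Timp1), with backgrounds of 30.7% and 30.2%.

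**Figure D1:**
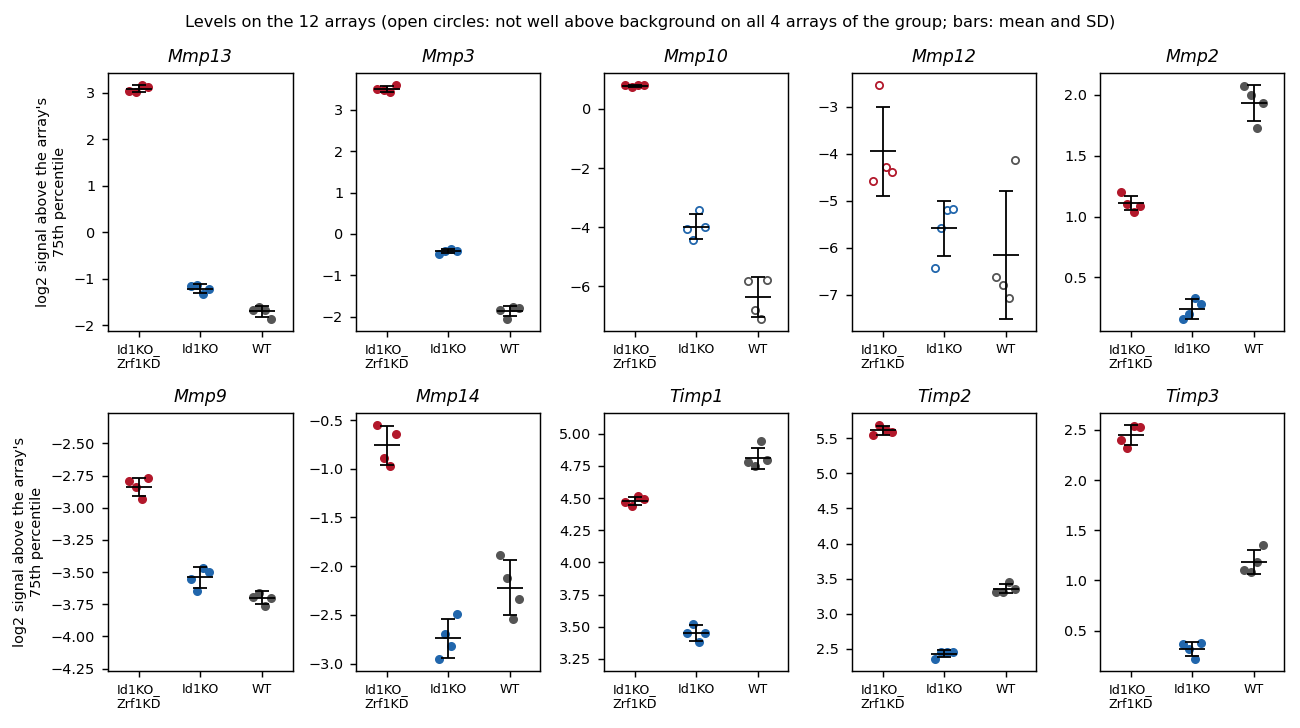
Level of each member on each of the 12 arrays, as log2 of the signal over the array's 75th percentile, with groups from left to right Id1KO_Zrf1KD, Id1KO and WT; points are arrays, bars are the mean and SD of 4, and each panel has its own vertical axis. The 4 Id1KO_Zrf1KD arrays lie above the 4 Id1KO arrays for each of the 9 members that passed the filter, whereas Mmp2 and Timp1 were highest in WT.

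Mmp13, the interstitial collagenase, had levels of 3.05, 3.02, 3.17 and 3.12 in Id1KO_Zrf1KD, against -1.15, -1.13, -1.33 and -1.22 in Id1KO and -1.67, -1.60, -1.66 and -1.86 in WT. The 3 groups did not overlap, and the Id1KO_Zrf1KD arrays stood far above both others. The log2 difference of Id1KO_Zrf1KD minus Id1KO was 4.30 ± 0.07 (SE), and that of Id1KO minus WT was 0.49 ± 0.07 (SE), a 1.41-fold higher level in Id1KO. The probe lies at chr9:7282762-7282821 in build mm9, the build of the array's own coordinates.

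Mmp3, stromelysin 1, which cuts proteoglycans and fibronectin and activates other precursors of the family, had levels of 3.50, 3.48, 3.44 and 3.6 in Id1KO_Zrf1KD, against -0.48, -0.41, -0.37 and -0.42 in Id1KO and -1.83, -2.05, -1.77 and -1.79 in WT. The groups formed 3 separate steps. Id1KO_Zrf1KD lay 3.93 ± 0.06 (SE) above Id1KO on the log2 scale, and Id1KO lay 1.44 ± 0.06 (SE) above WT, or 2.71-fold. Against WT, Mmp3 was 41.2-fold higher in Id1KO_Zrf1KD. Its probe lies at chr9:7455751-7455810 (mm9).

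Mmp10, stromelysin 2, had levels of 0.80, 0.74, 0.80 and 0.80 in Id1KO_Zrf1KD, against -4.07, -4.45, -3.41 and -4.00 in Id1KO and -5.83, -6.79, -7.10 and -5.77 in WT. The probe at chr9:7510011-7510070 (mm9) was well above background on 4 arrays of Id1KO_Zrf1KD, on 3 of Id1KO and on none of WT. Only a bound can therefore be given against WT: where no WT array measured the probe, each of its values was raised, where lower, to the dimmest level measured on that array. Mmp10 was at least 61.3-fold higher in Id1KO_Zrf1KD than in WT, and at least 2.26-fold higher in Id1KO than in WT. Both bounds hold for the processed signal only. The size depended on how background was removed. With a normexp correction of the raw signal the differences from Id1KO and WT were 8.11-fold and 12.7-fold in Id1KO_Zrf1KD, and in the deposited values Id1KO exceeded WT by 1.28-fold.

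Mmp12, the metalloelastase, stayed below the filter. Its brighter probe (chr9:7352935-7352994, mm9) had levels of -4.58, -2.54, -4.29 and -4.38 in Id1KO_Zrf1KD, of which 3 arrays were well above background. The values were -6.42, -5.59, -5.19 and -5.17 in Id1KO, with no array above background, and -6.63, -6.80, -7.06 and -4.13 in WT, with 1 array above it. The Id1KO_Zrf1KD values were the highest apart from 1 WT array, and the dim signal allows no fold. The other probe of the gene (chr9:7360373-7360432, mm9) was above background on no array.

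Mmp2, gelatinase A, which cuts denatured collagen and type IV collagen of basement membranes, took a different course. Its levels were 1.2, 1.10, 1.04 and 1.09 in Id1KO_Zrf1KD, against 0.16, 0.20, 0.33 and 0.28 in Id1KO and 2.07, 2.0, 1.73 and 1.93 in WT. The groups did not overlap, with WT highest and Id1KO lowest. Mmp2 was 1.82-fold higher in Id1KO_Zrf1KD than in Id1KO (log2 difference 0.87 ± 0.07, SE), 3.23-fold lower in Id1KO than in WT, and 1.77-fold lower in Id1KO_Zrf1KD than in WT. The probe lies at chr8:95376840-95376899 (mm9).

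Mmp9, gelatinase B, was measured by 10 spots of 1 probe (chr2:164780620-164780679, mm9). Its levels were -2.79, -2.84, -2.93 and -2.77 in Id1KO_Zrf1KD, against -3.55, -3.65, -3.47 and -3.50 in Id1KO and -3.69, -3.66, -3.76 and -3.70 in WT. The Id1KO_Zrf1KD arrays stood above the rest, while Id1KO and WT were separated by 0.01. The log2 difference of Id1KO_Zrf1KD minus Id1KO was 0.71 ± 0.05 (SE) and shrank to 0.16 with normexp, where the groups overlapped. That of Id1KO minus WT was 0.16 ± 0.05 (SE) and turned to -0.15 with quantile normalization and to -0.05 in the deposited values.

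Mmp14, the membrane-type enzyme that activates the Mmp2 precursor at the cell surface, had levels of -0.55, -0.89, -0.97 and -0.64 in Id1KO_Zrf1KD, against -2.95, -2.70, -2.82 and -2.49 in Id1KO and -1.89, -2.12, -2.54 and -2.34 in WT. Id1KO_Zrf1KD lay above both other groups, by 3.93-fold over Id1KO (log2 difference 1.98 ± 0.15, SE) and by 2.75-fold over WT. The first of these was 2.45-fold with normexp. Mmp14 had the widest spread within groups of the members measured on all arrays, with an SD of 0.20 in Id1KO_Zrf1KD, 0.20 in Id1KO and 0.28 in WT. Its probe lies at chr14:55058775-55058834 (mm9).

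Among the inhibitors, Timp2 differed most. The brighter of its probes (chr11:118163146-118163205, mm9) had levels of 5.54, 5.69, 5.61 and 5.59 in Id1KO_Zrf1KD, against 2.36, 2.45, 2.46 and 2.46 in Id1KO and 3.31, 3.31, 3.46 and 3.35 in WT. Id1KO was the lowest group and Id1KO_Zrf1KD the highest, without overlap. Timp2 was higher in Id1KO_Zrf1KD by 3.17 ± 0.05 (SE) on the log2 scale over Id1KO and by 4.75-fold over WT, and it was 1.90-fold lower in Id1KO than in WT. The other probe, whose genome coordinates span a splice junction (chr11:118171964-118178741, mm9), had levels of 2.34, 2.46, 2.23 and 2.48 in Id1KO_Zrf1KD, 0.34, 0.14, 0.56 and 0.38 in Id1KO, and 1.02, 0.95, 0.84 and 0.89 in WT. Both probes gave the groups in the same order, and with their mean Timp2 was 6.06-fold higher in Id1KO_Zrf1KD than in Id1KO, against 9.03-fold for the brighter probe alone.

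Timp3, the inhibitor that stays bound to the extracellular matrix and also acts on ADAM proteases, had levels of 2.40, 2.32, 2.54 and 2.53 in Id1KO_Zrf1KD, against 0.37, 0.32, 0.22 and 0.38 in Id1KO and 1.10, 1.08, 1.18 and 1.35 in WT. The order of the groups was that of Timp2, again without overlap. Timp3 was 4.36-fold higher in Id1KO_Zrf1KD than in Id1KO (log2 difference 2.12 ± 0.07, SE), 1.81-fold lower in Id1KO than in WT, and 2.41-fold higher in Id1KO_Zrf1KD than in WT. Its probe lies at chr10:85811696-85811755 (mm9).

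Timp1, a secreted inhibitor that also acts as a growth factor, had levels of 4.47, 4.44, 4.52 and 4.49 in Id1KO_Zrf1KD, against 3.45, 3.52, 3.38 and 3.45 in Id1KO and 4.78, 4.75, 4.94 and 4.80 in WT. It followed the order of Mmp2, with WT highest and Id1KO lowest. Timp1 was 2.04-fold higher in Id1KO_Zrf1KD than in Id1KO (log2 difference 1.03 ± 0.05, SE), 2.57-fold lower in Id1KO than in WT, and 1.26-fold lower in Id1KO_Zrf1KD than in WT. Its probe lies at chrX:20451802-20451861 (mm9).

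**Figure D2:**
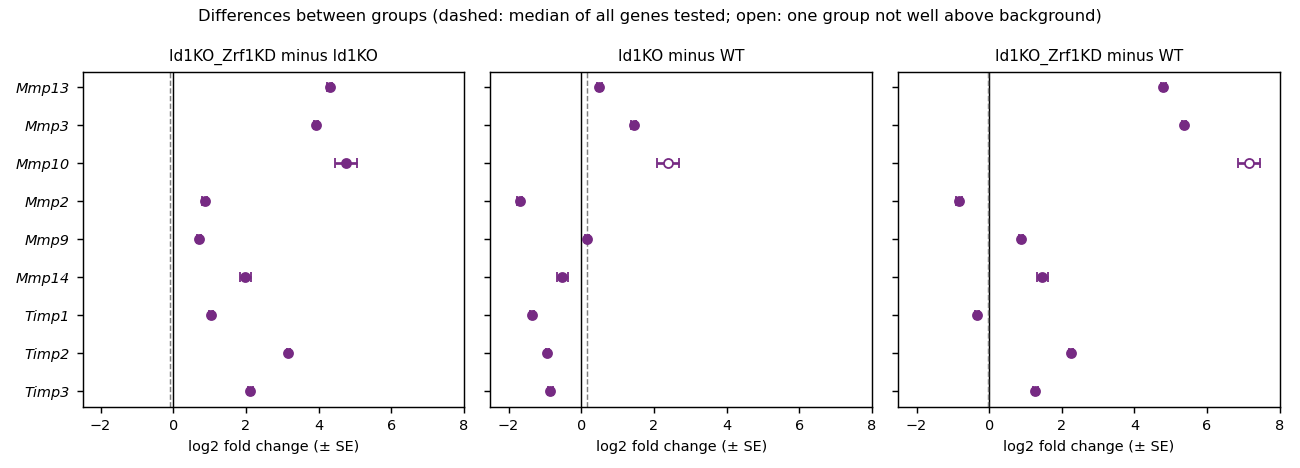
Log2 difference of each member in the 3 comparisons, with its standard error, from the fit across all genes. Mmp10, Mmp13 and Mmp3 lie furthest to the right for Id1KO_Zrf1KD minus Id1KO, and Mmp2 and the 3 inhibitors lie left of 0 for Id1KO minus WT.

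The 9 members thus fell into 3 orders of their group means. Mmp13, Mmp3, Mmp10 and Mmp9 were lowest in WT and highest in Id1KO_Zrf1KD. Mmp14, Timp2 and Timp3 were lowest in Id1KO and highest in Id1KO_Zrf1KD, and Mmp2 and Timp1 were lowest in Id1KO and highest in WT. In the first order, the steps between WT and Id1KO were small for Mmp9, whose separation was lost with other scalings, and in the second, WT and Id1KO overlapped for Mmp14. The arrays came from 3 slides that each held all 3 groups. Within single slides, the log2 difference of Id1KO_Zrf1KD minus Id1KO was 4.24 to 4.42 for Mmp13, 3.89 to 3.92 for Mmp3, 4.21 to 5.05 for Mmp10, 1.60 to 2.23 for Mmp14 and 3.1 to 3.22 for Timp2. The same difference was 0.81 to 0.86 for Mmp2, 0.66 to 0.69 for Mmp9, 0.99 to 1.10 for Timp1 and 1.94 to 2.24 for Timp3. The members thus kept their direction on each slide in this comparison.

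**Figure D3:**
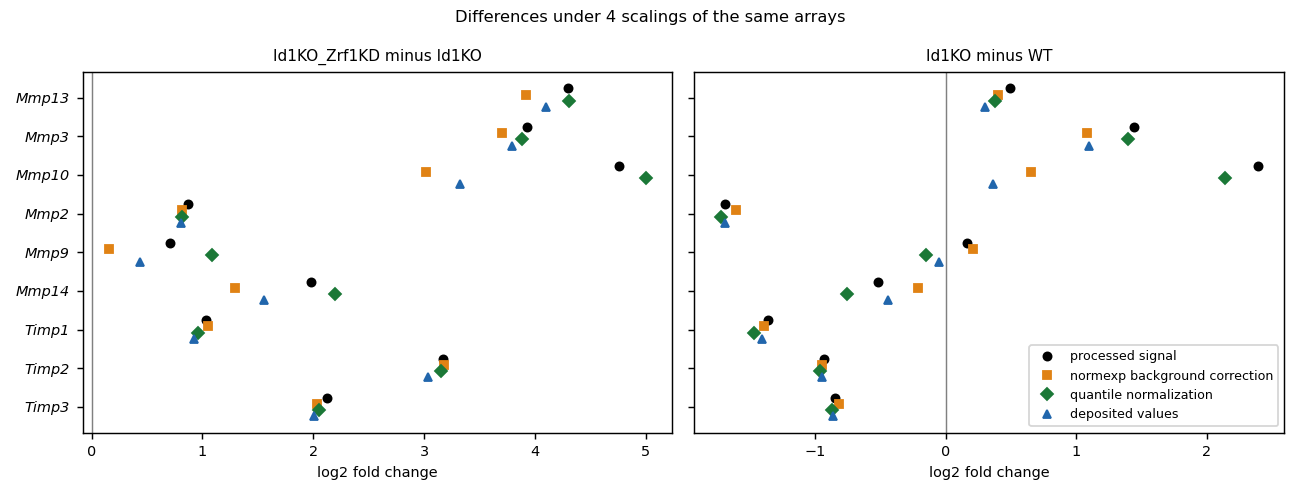
Log2 difference of each member for Id1KO_Zrf1KD minus Id1KO and for Id1KO minus WT under the 4 ways of scaling or background correction, 1 symbol each. The differences of Mmp10, Mmp9 and Mmp14 shrink with normexp, and Mmp9 in Id1KO minus WT lies on either side of 0.

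Mmp13, Mmp12, Mmp3 and Mmp10 lie in the cluster of 10 metalloproteinase genes on chromosome 9, whose probes span chr9:7282762-7697700 in mm9. The probe of Mmp1b lies between those of Mmp12 and Mmp3, and that of Mmp1a between those of Mmp3 and Mmp10. Besides the 3 members that passed the filter, no gene of the cluster did. Mmp12, Mmp1b, which encodes a collagenase-like enzyme, and Mmp8, the neutrophil collagenase, had a probe well above background on 3 arrays of Id1KO_Zrf1KD and on none of Id1KO. Mmp1a and Mmp7, which encodes matrilysin, were above background on no array. The cluster was thus not measured evenly, and detection within it differed by gene.

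Within 1000000 bases on either side of the cluster, 8 other genes with a symbol had a probe and 7 were tested. Birc2, an inhibitor of apoptosis, fell in Id1KO_Zrf1KD by 1.24 ± 0.05 (SE) on the log2 scale against Id1KO (limma, adjusted p = 2e-09). Dync2h1, the heavy chain of the ciliary dynein, fell by 0.15 (adjusted p = 0.0083). Pdgfd, a platelet-derived growth factor, rose by 1.61 ± 0.42 (SE; adjusted p = 0.0047), Tmem123 by 0.31 (adjusted p = 1.3e-05) and Yap1, a coactivator of the Hippo pathway, by 0.37 (adjusted p = 0.0024). Pdgfd was well above background on only 2 of the 4 Id1KO arrays, so the size of its difference is uncertain. Dcun1d5, with 0.09 ± 0.05 (adjusted p = 0.15), and Birc3, with 0.06 ± 0.13 (adjusted p = 0.71), did not pass the threshold. The tested genes on both sides of the cluster moved in either direction. Their log2 differences were smaller than those of Mmp13, Mmp3 and Mmp10. These 3 were chosen with this contrast known, so nothing is read from that order.

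**Figure D4:**
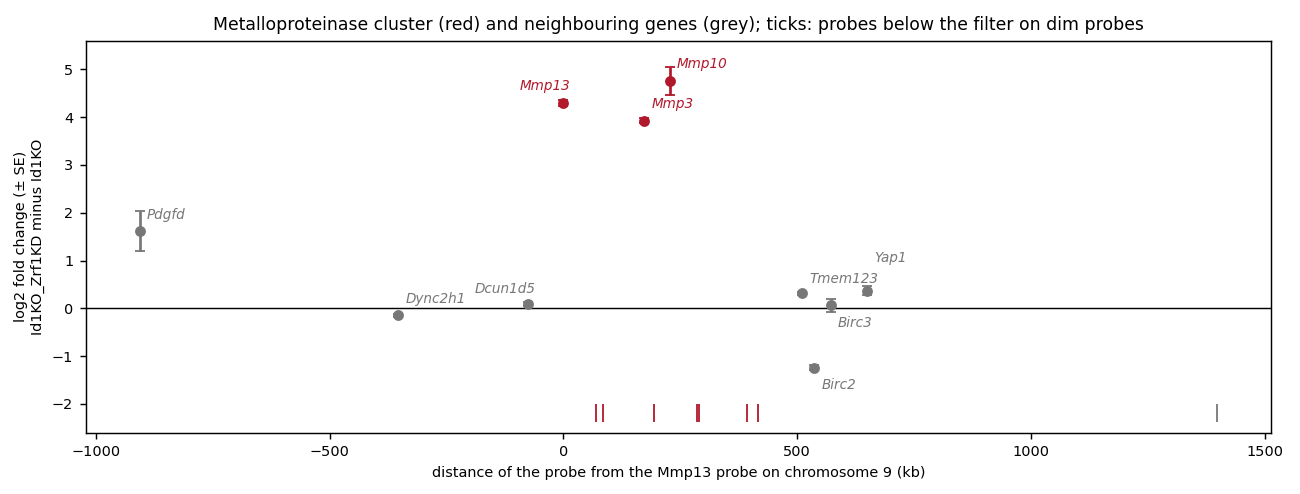
Log2 difference of Id1KO_Zrf1KD minus Id1KO for the genes of the chromosome 9 cluster and its surroundings, by distance from the Mmp13 probe in kilobases, with error bars of 1 SE and ticks for probes below the filter. Mmp13, Mmp3 and Mmp10 reach 3.93 to 4.76, whereas the 7 tested genes around the cluster lie between -1.24 and 1.61. The upper end is Pdgfd, which was well above background on 2 Id1KO arrays.

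Few of the remaining genes of the family were measurable. Of 17 others on the array, with Timp4 among them, 7 passed the filter, and Mmp1a, Mmp1b, Mmp7, Mmp8, Mmp16, Mmp19, Mmp20, Mmp21, Mmp27 and Mmp28 did not. Against Id1KO, 3 of the 7 rose in Id1KO_Zrf1KD at an adjusted p under 0.05, 2 fell and 2 did not pass, with a median log2 difference of -0.15. Over all genes tested, 32.3% rose and 39.8% fell. In Id1KO against WT, 1 of the 7 rose, 2 fell and 4 did not pass, where 42.5% of all genes rose and 29.6% fell.

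Mmp17, a membrane-anchored member, had levels of 1.62, 1.52, 1.44 and 1.56 in Id1KO_Zrf1KD, against 0.73, 0.67, 0.83 and 0.67 in Id1KO and 2.65, 2.59, 2.45 and 2.48 in WT. It rose 1.75-fold in Id1KO_Zrf1KD against Id1KO (limma, adjusted p = 3.7e-07) and fell in Id1KO, with a 3.53-fold lower level than in WT (adjusted p = 5.8e-10). It thus had the order of Mmp2 and Timp1, and was among the 3 genes closest to Mmp2 across the arrays. Mmp15, another membrane-type enzyme, rose by 0.55 on the log2 scale in Id1KO_Zrf1KD against Id1KO (adjusted p = 0.00045), and its log2 difference of Id1KO minus WT was -1.35 (adjusted p = 3.2e-07). Mmp11, stromelysin 3, differed by -0.59 between Id1KO_Zrf1KD and Id1KO (adjusted p = 7.6e-07), opposite to the stromelysins Mmp3 and Mmp10. Mmp23 rose by 0.46 in the same comparison (adjusted p = 0.00069), and Mmp24 did not pass, with a log2 difference of -0.48 ± 0.31 (SE; adjusted p = 0.19). Mmp24 was well above background on 1 Id1KO_Zrf1KD array and on no Id1KO array.

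Mmp25, also membrane-anchored, averaged -3.95 ± 0.20 in Id1KO_Zrf1KD, -3.34 ± 0.28 in Id1KO and -5.92 ± 0.37 in WT (SD, n = 4 each), where no WT array was well above background. It rose at least 3.52-fold in Id1KO against WT (limma, adjusted p = 3.1e-07), a bound that holds for the processed signal: the log2 difference of 2.58 there was 0.73 with normexp and 0.43 in the deposited values, both past the threshold. Its difference of -0.61 between Id1KO_Zrf1KD and Id1KO (adjusted p = 0.014) did not pass with quantile normalization (adjusted p = 0.35) or in the deposited values (adjusted p = 0.34). Timp4, the remaining inhibitor, had levels of -3.41, -3.40, -4.26 and -4.15 in Id1KO_Zrf1KD, against -4.73, -4.05, -3.25 and -2.59 in Id1KO and -3.38, -4.72, -4.60 and -4.75 in WT. Its groups overlapped, and the log2 difference of Id1KO_Zrf1KD minus Id1KO was -0.15 ± 0.46 (SE; adjusted p = 0.79).

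The next list held genes for proteins that activate metalloproteinases or hold, clear or inhibit them at the cell surface. Of 18 listed genes, 17 were tested, and 16 rose and none fell in Id1KO_Zrf1KD against Id1KO, with a median log2 difference of 1.57. Of all genes tested, 32.3% rose and 39.8% fell. The list was written with earlier results of these arrays known, and Plau and Serpinb2, described below, passed the filter only through Id1KO_Zrf1KD. Nothing is therefore read from the count. Thbs1, a matrix protein that binds Mmp2 and Mmp9 and activates TGF-beta, rose 12.8-fold (limma, adjusted p = 1.7e-11), with levels of 5.31, 5.27, 5.44 and 5.31 in Id1KO_Zrf1KD, against 1.70, 1.66, 1.52 and 1.72 in Id1KO and 2.96, 3.06, 3.23 and 3.03 in WT. The related Thbs2 rose 9.15-fold (adjusted p = 4.5e-11) and 5.31-fold with normexp. Lcn2, a lipocalin that binds Mmp9, rose 17.4-fold (adjusted p = 2.6e-10) and 9.85-fold with normexp.

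The plasminogen system, which produces plasmin, an activator of several metalloproteinase precursors, lay within that list. The following genes of the list were picked after their values were seen. Plaur, the urokinase receptor, rose 5.63-fold (limma, adjusted p = 5.6e-10). Plau, urokinase, rose at least 3.24-fold in the processed signal, with no Id1KO array above background (adjusted p = 3e-06). Inhibitors of the system rose too, Serpinb2 5.97-fold (adjusted p = 5.4e-06) and Serpine2 2.87-fold (adjusted p = 2.5e-08). Serpinb2 was well above background on 2 Id1KO arrays. The balance of activation and inhibition was not tested. Furin, the protease that cuts the precursor of Mmp14, rose 2.21-fold (adjusted p = 3.4e-07). Reck, a membrane-anchored inhibitor of metalloproteinases, was the 1 gene that did not pass, with levels averaging -1.76 ± 0.08 in Id1KO_Zrf1KD and -1.71 ± 0.09 in Id1KO (SD, n = 4 each; adjusted p = 0.50). Plg, plasminogen itself, was below the filter. In Id1KO against WT, 3 of the 17 rose and 11 fell, with a median of -0.65, where 42.5% of all genes rose and 29.6% fell. Ctsb, the lysosomal protease cathepsin B, was 2.30-fold lower in Id1KO (adjusted p = 1.5e-08).

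The ADAM and ADAMTS proteases, relatives of the metalloproteinases that shed membrane proteins and cut proteoglycans and procollagens, gave 13 genes that rose and 1 that fell of 16 tested in Id1KO_Zrf1KD against Id1KO, with a median log2 difference of 0.89. Of all genes tested, 32.3% rose and 39.8% fell. Adamts5, 1 of the 13, passed the filter only through Id1KO_Zrf1KD, and nothing is read from the count. Adam8 rose 3.45-fold (limma, adjusted p = 7.1e-10), Adamts2, a procollagen peptidase, 3.07-fold (adjusted p = 2.4e-09), and Adamts1 2.77-fold (adjusted p = 5.5e-07). Adamts10 was the gene that fell, with a log2 difference of -1.70 ± 0.12 (SE; adjusted p = 2.2e-07), 3.25-fold lower and 1.77-fold lower in the deposited values. In Id1KO against WT, 2 of the 16 rose and 11 fell, with a median of -0.68, where 42.5% of all genes rose and 29.6% fell. Adamts1 rose 2.18-fold (adjusted p = 4.7e-06; 1.36-fold in the deposited values), and Adamts7 was 3.82-fold lower (adjusted p = 6.6e-06; 1.64-fold with normexp).

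Transcription factors known to bind metalloproteinase promoters, among them those of the AP-1 letters printed above, were the last list. Of 15 tested, 12 rose and 1 fell in Id1KO_Zrf1KD against Id1KO, with a median log2 difference of 1.33. Of all genes tested, 32.3% rose and 39.8% fell, with a median of -0.09. Fosb, 1 of the 12, passed the filter only through Id1KO_Zrf1KD, and nothing is read from the count. Jun had levels of 4.61, 4.59, 4.5 and 4.48 in Id1KO_Zrf1KD, against 1.95, 2.04, 1.94 and 2.05 in Id1KO and 1.92, 1.94, 1.91 and 1.81 in WT. It rose 5.87-fold against Id1KO (limma, adjusted p = 2.4e-11) and did not pass in Id1KO against WT, with a log2 difference of 0.10 ± 0.05 (SE; adjusted p = 0.088). Its partners rose as well, Fosl2 9.42-fold (adjusted p = 4.7e-09), Fosl1 8.42-fold (adjusted p = 1e-09) and Fos 8.01-fold (adjusted p = 1.3e-09). Their folds were smaller with normexp, at 4.79, 2.83 and 3.46.

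Jund, an AP-1 member picked after its values were seen, did not pass against Id1KO (log2 difference 0.07 ± 0.07, SE; adjusted p = 0.44). In Id1KO against WT, 5 of the 15 rose, 5 fell and 5 did not pass, where 42.5% of all genes rose and 29.6% fell. The 5 that rose became 1 with quantile normalization and 1 in the deposited values. Etv1, an Ets factor, rose 3.41-fold in Id1KO against WT (adjusted p = 1.1e-10), and Ets2 was 2.87-fold lower (adjusted p = 2.4e-09).

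**Figure D5:**
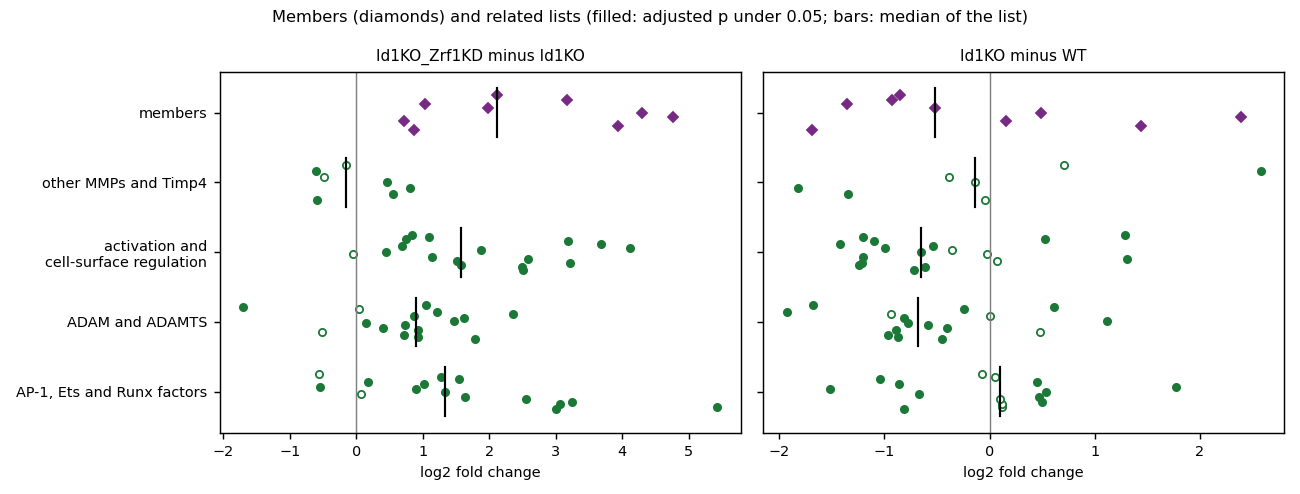
Log2 difference of each tested gene of the members and the 4 related lists, for Id1KO_Zrf1KD minus Id1KO and for Id1KO minus WT, with a bar at each list's median, diamonds for the members and filled circles for an adjusted p under 0.05. The medians for Id1KO_Zrf1KD minus Id1KO are 2.12 for the members, -0.15 for the other family genes, 1.57 for activation and cell-surface regulation, 0.89 for ADAM and ADAMTS proteases and 1.33 for the transcription factors.

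Against WT, the direct comparison of Id1KO_Zrf1KD gave 2 risen and 4 fallen of the 7 other family genes and 12 risen and 1 fallen of the 17 genes of activation and cell-surface regulation. It gave 6 risen and 6 fallen of the 16 ADAM and ADAMTS proteases and 12 risen and 2 fallen of the 15 transcription factors. Over all genes tested, 32.4% rose and 32.2% fell in that comparison.

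Several members are textbook products of cells other than stem cells, so markers of such cells were read on the same arrays. All 12 fibroblast markers rose in Id1KO_Zrf1KD against Id1KO (limma, adjusted p under 0.05). Of all genes tested, 32.3% rose and 39.8% fell, shares that stand beside the counts of the other marker lists too. The summed level of the fibroblast markers on the linear scale was 88.4 to 93.9 in Id1KO_Zrf1KD, 15.4 to 16.6 in Id1KO and 30.0 to 32.5 in WT. All 12 were well above background on the 4 arrays of Id1KO_Zrf1KD, 9 on those of Id1KO and 10 on those of WT. Lum, which encodes the collagen-binding protein lumican, was above background on no Id1KO or WT array. It passed the filter on dim probes only through Id1KO_Zrf1KD, so nothing is read from the count of 12. All 11 markers of parietal endoderm rose as well, and their sum was 398 to 412 in Id1KO_Zrf1KD, 122 to 128 in Id1KO and 221 to 234 in WT. Their brightest probes were those of Sparc and Lama1 in Id1KO_Zrf1KD and WT, and of Sparc and Lamb1 in Id1KO. Both sums had the order of the groups that Mmp14, Timp2 and Timp3 showed, and their part in the members' differences was not tested.

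Of the macrophage markers, of a cell type known for Mmp12, 8 were on the array. Well above background on all 4 arrays of a group were 6 of them in Id1KO_Zrf1KD, 5 in Id1KO and 5 in WT. None was absent from every Id1KO_Zrf1KD array, whereas Aif1 was above background on no Id1KO array, and Ptprc, Emr1 and Aif1 on no WT array. Of the 6 tested, 4 rose and 2 fell in Id1KO_Zrf1KD against Id1KO, with a median log2 difference of 0.96. Their summed level, in which Itgam and Csf1r were the highest, was 6.67 to 7.62 in Id1KO_Zrf1KD, 12.9 to 15.2 in Id1KO and 6.96 to 8.21 in WT.

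Of 7 markers of osteoblasts and hypertrophic chondrocytes, known for Mmp13, Sp7 and Ibsp were above background on no array. Col10a1, the collagen of hypertrophic chondrocytes, was above background on no Id1KO array and was among the 2 highest markers of the list in Id1KO_Zrf1KD. Of the 5 tested, 2 rose and 2 fell in Id1KO_Zrf1KD against Id1KO, and the sum was 7.33 to 9.84 in Id1KO_Zrf1KD, 5.14 to 6.94 in Id1KO and 8.12 to 11.4 in WT. Among trophoblast giant cell markers, 3 of 5 tested rose and 2 fell, with a sum of 15.0 to 17.5 in Id1KO_Zrf1KD, 33.1 to 42.5 in Id1KO and 24.5 to 28.1 in WT. Ctsq of that list was above background on no array, and Prl3d1 and Plac1 on no Id1KO array. Of 4 endothelial markers tested, 3 rose and none fell, with a sum of 2.28 to 2.64 in Id1KO_Zrf1KD, 2.10 to 2.31 in Id1KO and 4.33 to 4.89 in WT, and Cdh5 was above background on no Id1KO or WT array. The part of these cell types in the members' differences was not tested.

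Likeness to each member was measured as the root mean square of the log2 difference over the 12 arrays, each gene taken relative to its own mean, over 13545 genes with a symbol. Mmp13 was closest to Lor, which encodes the cornified envelope protein loricrin, at 0.35, and Mmp3 was closest to Lce1i, another cornified envelope gene, at 0.28, with Mmp13 at 0.41 among its nearest 3. Mmp10 had no close partner by this measure, the nearest being Il1rl1, the interleukin 33 receptor, at 0.53, then Mmp3 at 0.83. No WT array was well above background for Mmp10 or Il1rl1. Of the Id1KO arrays, 3 were for Mmp10 and 2 for Il1rl1, so the distances of Mmp10 include values near background. Timp2 was closest to Mgp, the matrix Gla protein, at 0.09, then Thbs2 at 0.13. Timp3 lay within 0.12 of Nr4a1, Emp1 and the laminin gene Lama1, and Mmp14 was closest to Tgfb2 at 0.14. Timp1 was closest to Msn, which encodes moesin, at 0.04, and Mmp2 to the kinase gene Wnk2 at 0.07, with Mmp17 at 0.09. Mmp9, which differed little, lay at 0.04 to 0.05 from Utp15, Hnrnpab and Pdrg1.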

How the data were processed

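Total RNA of 12 samples was hybridised in 1 colour, Cy3, to arrays with 62976 spots. Per the file headers, Feature Extraction 10.7.3.1 made the scanner files. They give intensity values deposited by the authors, namely the raw mean of a spot, its local background and a processed signal from which background and spatial trend had been removed. Other columns deposited by the authors are flags for background, saturation and outliers. A further file deposited by the authors holds log2 values whose columns all have a median of 6.55, and the sources used here do not say how it was normalized. Probe coordinates are in mm9, and promoter coordinates in GRCm38.p6.

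From the processed signal, log2 minus the array's 75th percentile over non-control spots was computed. Outlier spots (108 to 302 per array) were left out, spots of a probe were averaged, and no spot was saturated. A probe counted as above background on an array where 50% or more of its spots were, and 30885 of 55681 probes, which were so on the 4 arrays of some group, were kept. The brightest kept probe stood for each gene name, giving 22593 genes, of which 217 lacked a value on an array. Files were read with data.table, version 1.17.8. limma 3.58.1 in R 4.3.3 fitted a mean per group over all 3 groups, with two-sided moderated tests and Benjamini-Hochberg adjustment over all genes tested, at 0.05. The method was tested on simulated data. Intervals and errors rest on 4 arrays per group, which limits the precision.

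The members and lists were chosen with earlier results of these data known. Genes named from the lists, beyond the members, passed 0.05, differed by 1 or more on the log2 scale, and had the smallest adjusted p of their list. Their groups did not overlap in the comparison that named them, which the rule did not require. 1 gene that the rule names is not reported here. Exceptions are marked as picked after their values were seen, except where a whole list or the neighbourhood of the cluster is described. Alternatives were normexp (offset 50), quantile normalization, the deposited values, no filter on dim probes, the mean of a gene's probes, the slide or the replicate number as a block, and leaving out each array. Sequences were read from RefSeq tables with pandas 2.3.3, and plots made with matplotlib 3.10.9.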

Additional observations from a re-analysis of the deposited data

Results flagged for a closer look

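Among the 27 sets of 4 values of the 9 compared members in the 3 groups, 2 had a sample set apart from the other 3 by Dixon's test, where chance alone marks a small share of sets. Mmp10 in Id1KO_Zrf1KD replicate 2 was at 0.74, against 0.80 to 0.80 in the other replicates, a gap of 0.917 of the group's range. Timp2 in Id1KO replicate 1 was at 2.36, against 2.45 to 2.46 in the others, a gap of 0.842 of the range. Both gaps are small on the log2 scale beside the differences between the groups.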

How the results depend on the processing

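The counts of members without overlap stayed within 1.5 times of the reported ones under every alternative. Without the filter on dim probes, 10 members lay higher in Id1KO_Zrf1KD than in Id1KO, Mmp12 included, and with normexp 8, since Mmp9 overlapped. Id1KO minus WT changed sign for Mmp9, to -0.15 with quantile normalization and -0.05 in the deposited values, and for Fosl1, to -0.22 and -0.06, against 0.16 and 0.12 as reported. The cause was not tested. Leaving out 1 array at a time moved Mmp10 in Id1KO_Zrf1KD minus Id1KO between 4.61 and 4.95. Without Id1KO replicate 1, 2 in place of 1 of the other family genes rose in Id1KO against WT. The 1 gene of the activation list that fell in Id1KO_Zrf1KD against WT no longer passed when some single arrays were left out or the replicate number was a block.

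The scaling shifted the median of all genes in Id1KO minus WT: 0.15 as reported, 0.16 with normexp, 0.02 with quantile normalization and 0.01 in the deposited values. In that comparison 59.0% of calls were higher, against 50.4% with quantile normalization and 66.9% without the filter. In Id1KO_Zrf1KD minus Id1KO, 44.8% were higher, against 51.3% at most and 35.2% without the filter. The replicate numbers did not pair the samples: arrays of the same number had correlations of deviations from -0.44 to 0.40 over 12 pairs, and 1 of 12 arrays was closest to its own number. With the replicate number as a block, 7088 genes rose and 8701 fell in Id1KO_Zrf1KD against Id1KO, beside 7297 and 8988 without it, and no member count changed. Signal over background limits Mmp10 and Mmp12, and 4 arrays per group limit the errors.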
